A study of Mus musculus and Homo sapiens with 10 samples.

Results

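The Hox gene clusters were followed through lists of regions enriched for histone marks in 2 cell lines. Members were chosen by position alone: every enriched region, called an island, that shared at least 1 bp with 1 of the 4 Hox windows of its genome. There were 134 such islands in the 3 lists of mouse embryonic stem cells (mESC) and 156 in the 3 lists of the human line K562, 290 of 632878 islands in all. By mark, mESC had 77 islands of H3K122ac, 42 of H3K64ac and 15 of H3K27ac, and K562 had 48 of H3K122ac, 40 of H3K27ac and 68 of H3K4me1. The mouse windows (mm9) were chr6:52100000-52220000 for Hoxa, chr11:96040000-96235000 for Hoxb, chr15:102745000-102870000 for Hoxc and chr2:74485000-74610000 for Hoxd, 565 kb together. The human windows (hg19) were chr7:27125000-27255000 for HOXA, chr17:46600000-46810000 for HOXB, chr12:54325000-54450000 for HOXC and chr2:176940000-177060000 for HOXD, 585 kb together.

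The libraries came from chromatin cut with micrococcal nuclease, which leaves nucleosomes, and all but an input were immunoprecipitated. The mESC were 46c cells, which carry a Sox1-GFP reporter, at passages 25 to 28, grown undifferentiated without feeders in serum with Lif. There were 2 libraries each for H3K122ac, H3K64ac and H3K27ac, merged by the authors into 1 list per mark. K562 is an erythroleukaemia line, used at passage 14, and gave a single library for each of the marks H3K122ac, H3K27ac and H3K4me1 and an input. With 1 list per mark, no comparison below has a replicate test, and the values describe these lists. The lists held between 18283729 and 44320255 reads inside islands, and the ratio of each library to its background library, which the authors' fold divides out, ran from 0.258 for K562 H3K122ac to 2.19 for mESC H3K27ac.

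Hox genes encode homeodomain transcription factors that give cells their position along the body axis, and each cluster lines its genes up in the order in which they act, from the anterior end to the posterior group 13. In embryonic stem cells the clusters are classic targets of Polycomb repressors and carry active and repressive histone methylation together, a state called bivalent. Blood cells and leukaemias commonly express part of the HOXA and HOXB genes. H3K122 and H3K64 lie in the globular core of the histone, where it touches DNA, whereas H3K27 lies in the tail and its acetylation marks active promoters and enhancers. H3K4me1 is typical of enhancers. Distances in the B, C and D clusters are measured from the end of the window nearest the lowest-numbered gene, which is Hoxb1, Hoxc4 or Hoxd1. This orientation is general knowledge of the clusters. For mouse, RefSeq places the same genes at the ends of these clusters in another build, GRCm38. No annotation of mm9 or hg19 was used here, so islands were placed by distance and not assigned to single genes.

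DNA rich in the dinucleotide CpG is where Polycomb complexes are known to settle. RefSeq (GRCm38.p6) gave upstream sequence for 22 of the 39 mouse Hox genes, with 24 starts, of which 10 each were in Hoxa and Hoxd, 3 in Hoxb and 1 in Hoxc, so the values mostly describe Hoxa and Hoxd. In the 250 bases before each start, the median number of CpG (the letters CG, read on the strand shown) was 12.5, with a range of 2 to 35, against a median of 6 over all 32851 starts in the table. At least 10 CpG were present at 15 of the 24 Hox starts (62.5%) and at 37.8% of all starts, and at least 20 at 8 (33.3%) and 17.9%. The richest, Hoxa13 and Hoxd13, and the poorest, a start of Hoxd11, are shown to give the range, with each CG in capitals. Their coordinates belong to GRCm38 and cannot be set against the mm9 islands.
Hoxa13, GRCm38.p6 chr6:52260881-52261130, minus strand: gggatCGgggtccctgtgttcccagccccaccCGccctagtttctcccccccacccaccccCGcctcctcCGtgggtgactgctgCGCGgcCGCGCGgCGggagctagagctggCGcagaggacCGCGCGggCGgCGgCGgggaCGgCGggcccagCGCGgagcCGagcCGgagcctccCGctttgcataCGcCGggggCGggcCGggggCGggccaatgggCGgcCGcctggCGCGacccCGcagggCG
Hoxd13, GRCm38.p6 chr2:74667975-74668224, plus strand: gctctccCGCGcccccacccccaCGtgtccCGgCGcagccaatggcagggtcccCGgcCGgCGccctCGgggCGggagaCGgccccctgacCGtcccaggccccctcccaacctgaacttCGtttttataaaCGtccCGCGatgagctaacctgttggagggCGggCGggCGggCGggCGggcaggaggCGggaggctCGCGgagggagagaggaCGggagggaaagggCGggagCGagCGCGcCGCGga
Hoxd11, GRCm38.p6 chr2:74679308-74679557, plus strand: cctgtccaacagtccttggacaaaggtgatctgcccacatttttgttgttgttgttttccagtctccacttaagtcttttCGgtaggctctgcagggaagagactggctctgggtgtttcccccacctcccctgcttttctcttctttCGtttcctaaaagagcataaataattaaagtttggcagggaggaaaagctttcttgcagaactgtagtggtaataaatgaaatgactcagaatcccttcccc
Hoxa13 and Hoxd13 are the most posterior genes of their clusters and pattern limbs and the hindgut, and Hoxd11 acts in the forearm and kidney.

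In mESC, all 4 clusters were broadly covered by H3K122ac and partly by H3K64ac, and H3K27ac covered 4.64% or less of each. H3K122ac islands covered 48.4% of the bases of the 4 windows, H3K64ac 23.1% and H3K27ac 2.87%. Over the chromosomes (each taken up to its last island) the same lists covered 8.95%, 7.96% and 7.40%. The Hox windows thus lay above the chromosome-wide level for both globular-domain marks and below it for the tail mark.

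**Figure D1:**
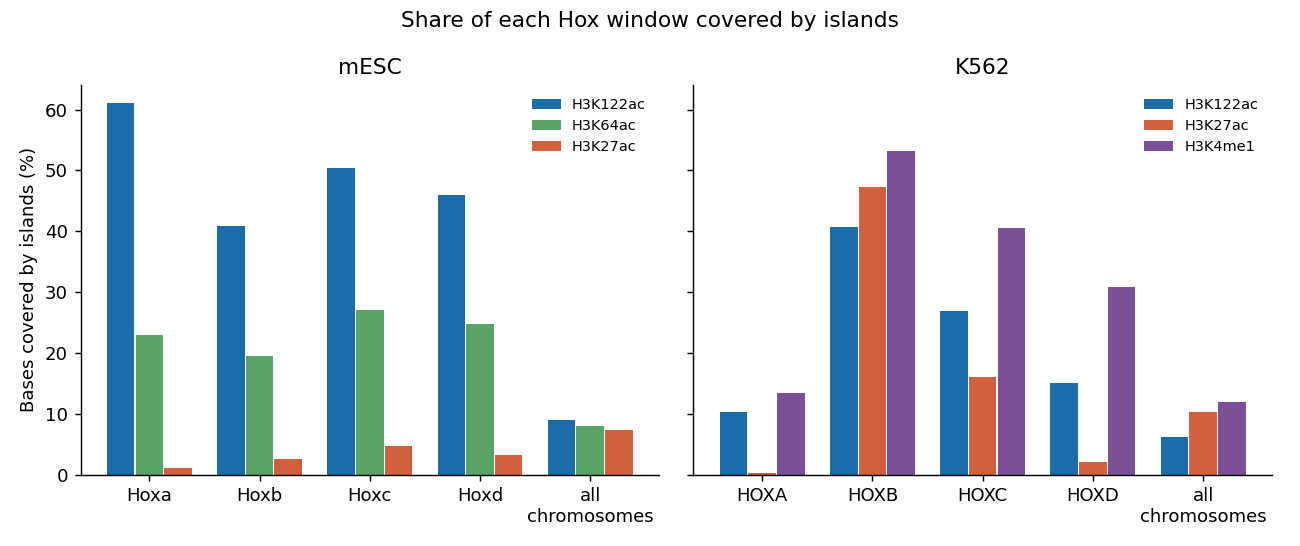
Bars give the percent of bases covered by islands (y axis, from 0) in each Hox window and over all chromosomes, for the 3 marks of mESC (left) and of K562 (right); there is 1 list per bar and no error bar. H3K122ac stood between 40.9% and 61% in the mouse windows where H3K27ac stayed at 4.64% or less, whereas in K562 HOXB all 3 marks exceeded 40%.

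The Hoxa window was the most fully covered by H3K122ac, at 61% of its bases in 21 islands. H3K64ac covered 23% of it in 10 islands, and H3K27ac 1.17% in a single island. Of 19435 windows of the same 120 kb tiled along the chromosomes, counting those with any mESC island, 0.268% had as much H3K122ac or more, 11.7% as much H3K64ac and 80.4% as much H3K27ac. Hoxa was therefore near the top of the genome for H3K122ac and in the lower part for H3K27ac. The only H3K27ac island, chr6:52195401-52196800, held 256 reads over 89 background reads, a fold of 1.32, with the authors' q-value at 3.74e-05. It lay inside the longest H3K122ac island of the cluster, chr6:52192801-52200400, which had a fold of 2.37. It was lost when a q-value of at most 1e-10 was asked for, while 19 of the 21 H3K122ac islands were kept. The share of each whole list kept at that q-value was not taken.

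The Hoxc window had H3K122ac over 50.4% of its bases in 16 islands, H3K64ac over 27% in 10 and H3K27ac over 4.64% in 6. The Hoxd window had 45.9% in 18 islands, 24.8% in 12 and 3.2% in 3. The Hoxb window, the longest at 195 kb, had 40.9% in 22 islands, 19.5% in 10 and 2.56% in 5. Among windows of the same length with any mESC island, 0.961%, 1.67% and 2.01% reached the H3K122ac coverage of Hoxc, Hoxd and Hoxb, and 51.1%, 60.7% and 65.5% their H3K27ac coverage. The median H3K27ac coverage of such windows was 4.8% for the length of Hoxc and Hoxd and 4.92% for that of Hoxb. For H3K27ac, Hoxc was therefore near the middle of the genome. The order of the marks, H3K122ac over H3K64ac over H3K27ac, was the same in the 4 clusters.

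H3K122ac was spread along the Hoxb, Hoxc and Hoxd clusters and not gathered at an end. The longest bare stretch of the Hoxa window was 12200 bp. In 5 equal segments taken from the Hoxb1 end, H3K122ac covered 42.6%, 60.5%, 52.3%, 21.0% and 28.2% of the Hoxb window. The longest stretch of Hoxb with no H3K122ac island, 35200 bp, lay across its last 2 segments. From the Hoxc4 end the Hoxc segments had 24%, 71.2%, 64.8%, 40.8% and 51.2%, and from the Hoxd1 end the Hoxd segments had 30.4%, 44%, 55.2%, 61.6% and 38.4%.

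H3K64ac was patchier along the same windows. In Hoxb it covered 29.7% of both end segments but 9.74% of segment 2. In Hoxc it reached 46.4% in segment 3 and in Hoxd 41.6% in segment 4, with 6.4% and 24% in the segments at the Hoxc4 and Hoxd1 ends. H3K27ac was listed in no island of segments 1 to 3 of Hoxd, of segments 2 and 3 of Hoxb, or of the end segments of Hoxc.

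**Figure D2:**
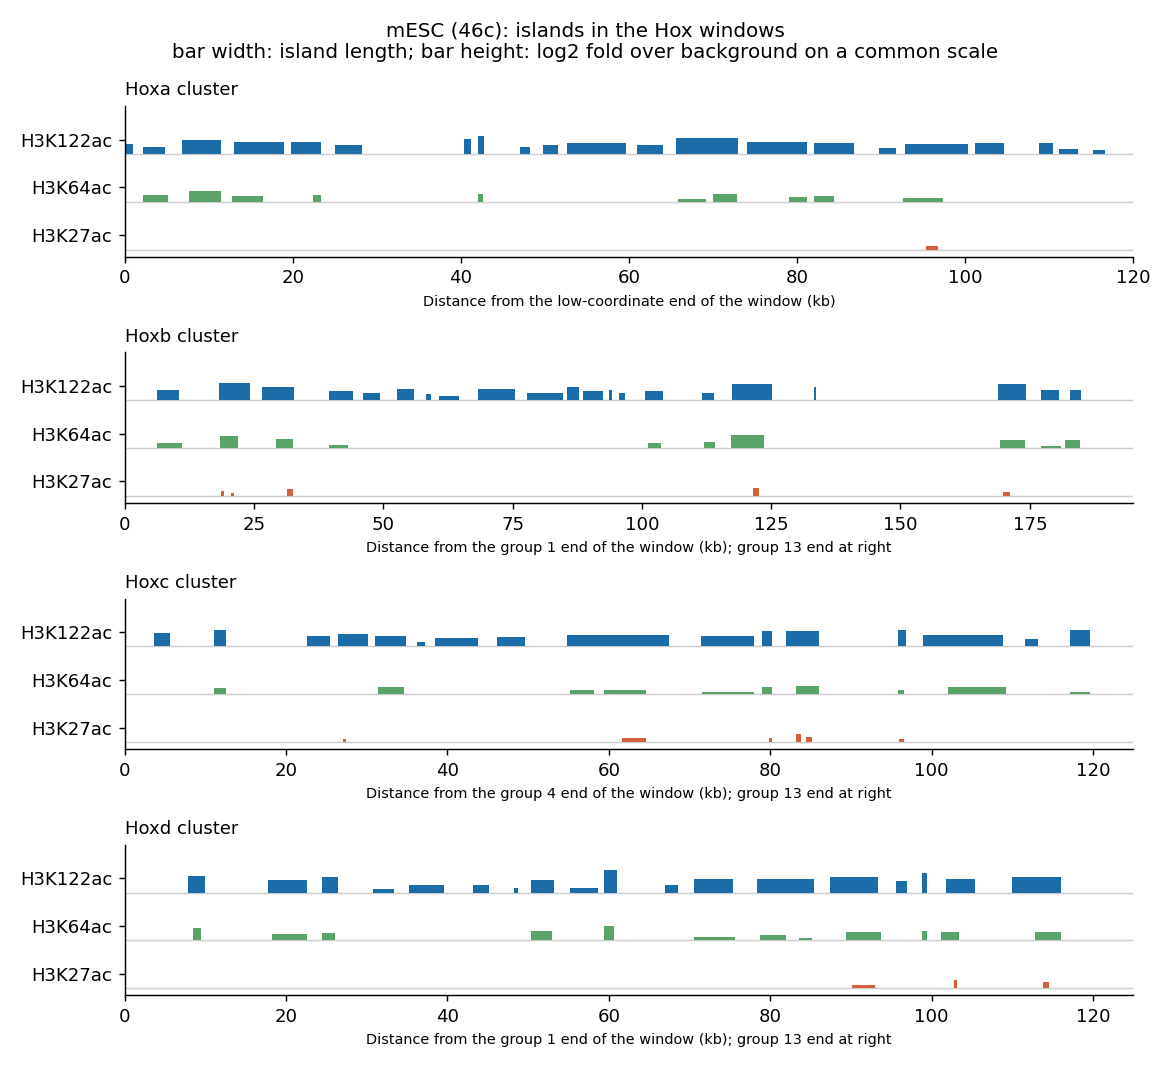
Islands of the 3 marks in the 4 mESC windows, drawn by distance in kb from the end named under each panel; bar width is island length and bar height the log2 of the authors' fold. H3K122ac bars (77 islands) are spread along each window, with a bare stretch of 35200 bp in Hoxb. Most H3K64ac bars (42) sit under H3K122ac bars, and the 15 H3K27ac bars are short.

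Within these windows every H3K64ac island and every H3K27ac island met an island of H3K122ac. For H3K64ac this was 42 of 42 (Wilson 95% interval 91.6 to 100%), near the 93.5% of the whole list that met H3K122ac. For H3K27ac it was 15 of 15 (79.6 to 100%), where 55% of the whole list did. H3K122ac covered 48.4% of these windows and 8.95% of the chromosomes, and the part of this wider coverage in the shares was not tested. The intervals cover counting error only, since neighbouring islands share chromatin and a background library. Of the 565 kb, 147.4 kb carried H3K122ac alone, 109.8 kb H3K122ac with H3K64ac and 15.8 kb all 3 marks. H3K122ac with H3K27ac took 0.4 kb, H3K64ac alone took 4.8 kb, no base carried H3K27ac alone, and 286.8 kb had no island.

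In the opposite direction, few H3K122ac islands met H3K27ac: 13 of 77, or 16.9% (10.1 to 26.8%), beside 55.6% of the whole H3K122ac list. The share was 8.57% with a q-value of at most 1e-10 in both lists, and 1.3% when H3K27ac had to cover 50% of the island. No whole-list share was taken at these settings, so these values cannot be set beside the 55.6%. The counts at 1 bp were 1 of 21 in Hoxa, 4 of 22 in Hoxb, 5 of 16 in Hoxc and 3 of 18 in Hoxd. H3K64ac islands met H3K27ac in 12 of 42 cases, 28.6% (17.2 to 43.6%), beside 72.5% of their whole list. Islands were longer in the windows, with a median of 3400 bp for H3K122ac, than in the whole list, with 1800 bp. Among islands over 4000 bp, 8 of 25 in the windows met H3K27ac, against 83.7% of such islands in the whole list. Among those with a fold of 3 or more it was 10 of 26, against 67.5%. The background library had a median of 68.2 reads per kb of H3K122ac island in the windows and 61.9 in the whole list. The H3K27ac library had the highest ratio to background of the 3 mESC marks, which the fold divides out and which does not measure enrichment. Its list had the most islands over the genome, 122097. Over that list the median fold was 1.49, and 4.44% of islands reached a fold of 3. How far the enrichment of this library shaped the shares above was not tested.

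For the 64 H3K122ac islands free of H3K27ac, the closest H3K27ac island was typically far off, at a median distance of 21500 bp. The distance exceeded 5000 bp for 55 of the 64 (85.9%), and for 64.5% of such islands in the whole list. The median in the whole list was 8400 bp. Of these 64, 28 carried H3K64ac and 36 carried neither other mark. The class with H3K64ac and without H3K27ac made up 36.4% of the H3K122ac islands in the windows and 16.1% of the whole list, and the class with neither mark 46.8% and 28.3%. H3K64ac as such was met by 40 of 77 H3K122ac islands (51.9%; 41.0 to 62.7%), near the 60.6% of the whole list.

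Enrichment inside the islands was moderate. The median H3K122ac fold was 2.51 in the windows and 2.83 in the whole list, and 26 of 77 islands (33.8%) reached a fold of 3, beside 46.3% of the whole list. By cluster 4 of 21 did so in Hoxa, 6 of 22 in Hoxb, 6 of 16 in Hoxc and 10 of 18 in Hoxd. Class by class the folds were close to those of the whole list. The median was 3.91 against 3.69 for H3K122ac islands with both other marks, 2.82 against 2.87 with H3K64ac alone and 2.13 against 2.10 with neither. For H3K64ac the median fold was 1.74 in the windows and 2.42 in the whole list, and 2 of 42 islands reached a fold of 3, beside 36.2% of the whole list. The 15 H3K27ac folds ran from 1.3 to 1.99, with a median of 1.44, where the whole list had 1.49.

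The strongest H3K122ac island of each mESC cluster was 1600 bp or shorter in 3 of the 4. In Hoxd it was chr2:74549001-74550600, 1600 bp long and 59.4 kb from the Hoxd1 end, with 408 reads over 64 background reads and a fold of 6.98. The strongest H3K64ac island of all 4 windows, chr2:74549401-74550600, lay within it with a fold of 3.55, and no H3K27ac island met either. In Hoxa it was chr6:52142001-52142800, with 252 reads over 56 and a fold of 4.93, again without H3K27ac. The sites of highest H3K122ac enrichment in Hoxa and Hoxd thus had no H3K27ac island.

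In Hoxb and Hoxc the strongest H3K122ac islands did meet H3K27ac. The Hoxb island chr11:96210801-96216800, 6000 bp long and 18.2 kb from the Hoxb1 end, had a fold of 4.37 and held 2 small H3K27ac islands of fold 1.3 and 1.54. The longest Hoxb island, chr11:96109801-96117600, lay 117.4 kb from that end and had 1773 reads over 456, a fold of 4.26. It overlapped the strongest H3K64ac island of Hoxb, at a fold of 3.11, and an H3K27ac island with a fold of 1.89. In Hoxc the strongest island was chr15:102773201-102774200, with a fold of 4.32 and an H3K27ac fold of 1.34. The longest H3K122ac island of the 4 windows was also in Hoxc, chr15:102802601-102815200, 12600 bp with a fold of 2.59, and held 2 H3K64ac islands and an H3K27ac island of 3000 bp.

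Of the 15 H3K27ac islands, all of which met H3K122ac, 14 also met H3K64ac; the exception was chr15:102842601-102843000 in Hoxc, with a fold of 1.33. Those of Hoxb not yet named were chr11:96202401-96203600, 31.4 kb from the Hoxb1 end with a fold of 1.78, and chr11:96063801-96065200, 169.8 kb from it with a fold of 1.44. The latter lay beyond the long bare stretch, on the side of Hoxb13, in an H3K122ac island with a fold of 4.22. The 3 Hoxd islands all lay between 90.2 and 114.6 kb from the Hoxd1 end, towards Hoxd13. They were chr2:74517001-74519800 with a fold of 1.32, chr2:74506801-74507200 with 1.99 and chr2:74495401-74496200 with 1.79, and the H3K122ac islands over them had folds of 4.00, 3.30 and 3.85. The strongest Hoxc H3K27ac island, chr15:102786201-102786800, had a fold of 1.93 and lay in the strongest H3K64ac island of that cluster, chr15:102784001-102786800, which had a fold of 2.04. A q-value of at most 1e-10 kept 2 H3K27ac islands each in Hoxb, Hoxc and Hoxd.

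H3K64ac islands without H3K27ac included the strongest of Hoxa, chr6:52107601-52111400, with 658 reads over 231 and a fold of 2.63. It lay wholly inside an H3K122ac island with a fold of 3.41. The longest H3K64ac island of the 4 windows, chr15:102760801-102768000 in Hoxc, spanned 7200 bp with a fold of 1.84, and the longest of Hoxd, chr2:74534401-74539400, 5000 bp with 1.41. Both met H3K122ac and neither met H3K27ac. The longest Hoxd H3K122ac island, chr2:74524601-74531600, had a fold of 3.17 over 7000 bp and met 2 H3K64ac islands and no H3K27ac island.

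K562 differed between clusters: each of the 3 marks covered HOXB most and HOXC next, and HOXA and HOXD had little H3K27ac. H3K122ac covered 40.7% of HOXB in 17 islands, 26.9% of HOXC in 13, 15% of HOXD in 10 and 10.3% of HOXA in 8. H3K27ac had the same order of clusters over a wider range, with 47.3% of HOXB in 24 islands, 16% of HOXC in 14, 2% of HOXD in 1 and 0.308% of HOXA in 1. H3K4me1 covered 53.1%, 40.5%, 30.8% and 13.4% in 25, 17, 15 and 11 islands. Over the chromosomes the lists covered 6.25%, 10.3% and 12.0% for H3K122ac, H3K27ac and H3K4me1. HOXA and HOXD thus lay above the chromosome-wide level for H3K122ac and H3K4me1 and below it for H3K27ac. Among K562 windows of the same length with any island, 1.61% reached the H3K122ac coverage of HOXB, 8.73% that of HOXC, 22.4% that of HOXD and 32.9% that of HOXA. In the same order, these shares were 4.76%, 14.4%, 23.8% and 47.8% for H3K4me1. For H3K27ac they were 6.11%, 37.9%, 67.8% and 82.6%. HOXA was therefore near the middle of the genome for H3K4me1.

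**Figure D3:**
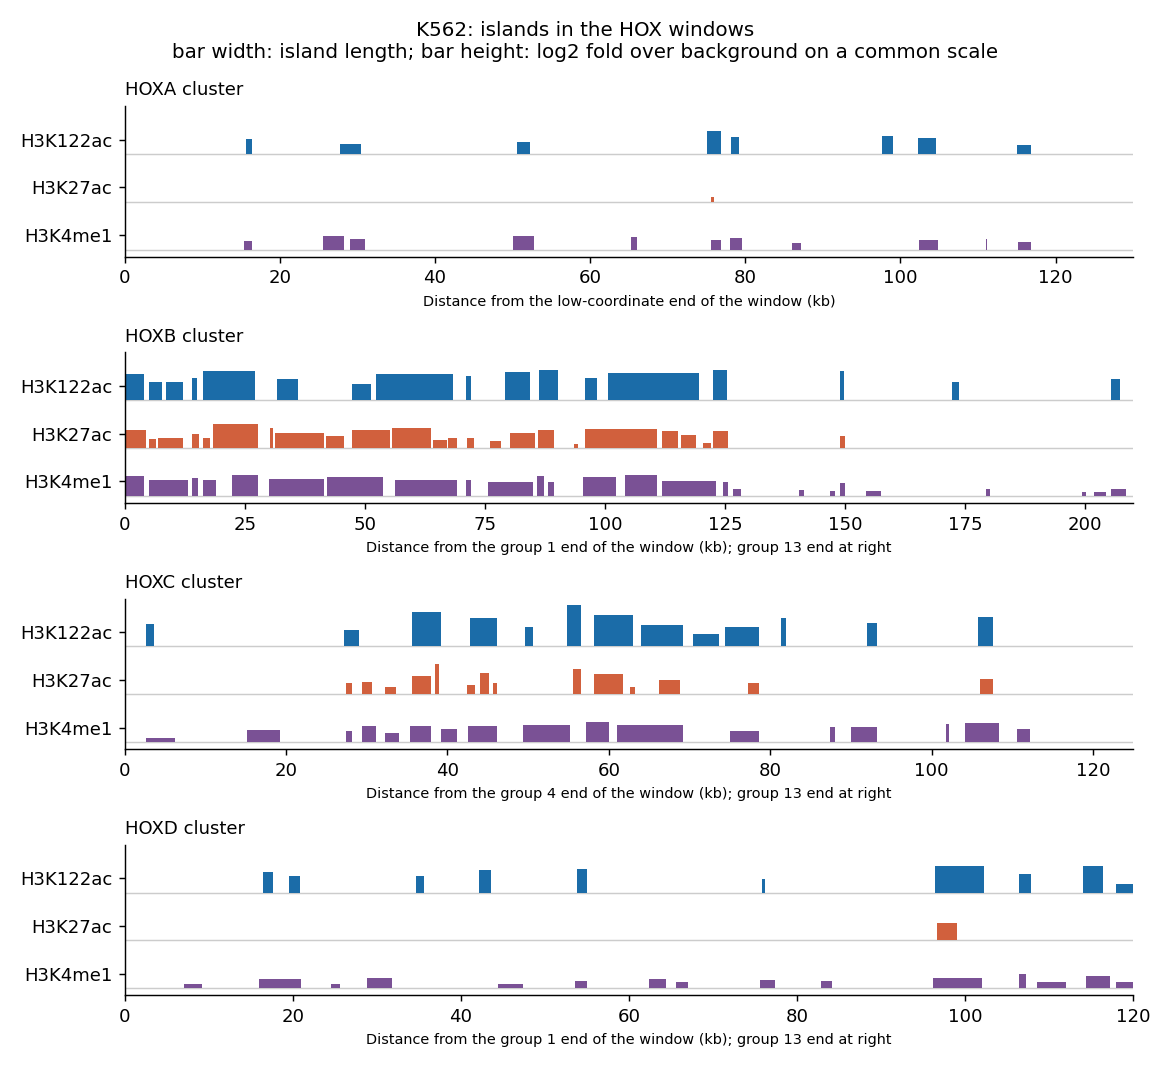
Islands of the 3 marks in the 4 K562 windows, drawn as distance in kb from the end named under each panel; bar width is island length and bar height the log2 of the authors' fold. All 3 marks fill the HOXB window up to about the third of its 5 segments, and HOXA and HOXD each show a single H3K27ac bar.

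Within HOXB the marks filled the 3 segments nearest the HOXB1 end and thinned out towards the HOXB13 end. In 5 equal segments of 42 kb from the HOXB1 end, H3K122ac covered 63.3%, 61.0%, 69.0%, 1.90% and 8.10%. H3K27ac covered 81.9%, 76.2%, 76.2%, 2.38% and 0%, and H3K4me1 78.6%, 81.0%, 70.5%, 18.6% and 17.1%. All 3 marks together lay over 66 kb of the 210 kb. The longest HOXB H3K122ac island, chr17:46700601-46719600, spanned 19000 bp with 2908 reads over 1027 background reads and a fold of 11, and met 3 H3K27ac and 3 H3K4me1 islands. The strongest, chr17:46722401-46725400, had 519 reads over 142 and a fold of 14.2, with H3K27ac at 4.22. A further broad island nearer HOXB1, chr17:46616201-46627200, had a fold of 12.2, and over it lay the strongest H3K27ac island of HOXB, chr17:46618401-46627800, with a fold of 7.99, and the strongest H3K4me1 island, with a fold of 6.05.

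In HOXC, H3K122ac and H3K27ac gathered in the middle of the window, and H3K4me1 did so less. From the HOXC4 end H3K122ac covered 4%, 36.8%, 64.8%, 21.6% and 7.2% of the segments, and H3K27ac 0%, 36.8%, 31.2%, 5.6% and 6.4%. H3K4me1 covered 30.4%, 52.8%, 64.8%, 29.6% and 24.8%. The strongest H3K122ac island of all 4 K562 windows lay in the middle segment, chr12:54393401-54395200, with 378 reads over 39 and a fold of 37.5. Of its 1800 bp, an H3K27ac island with a fold of 8.59 covered 1000 bp. An H3K4me1 island with a fold of 4.3 covered 400 bp. The next strongest H3K122ac island, chr12:54410801-54414400, had 619 reads over 123 and a fold of 19.5. It held the strongest H3K27ac island, chr12:54411001-54411600, with a fold of 13.5 from 111 reads over only 12 background reads. That H3K27ac island met no H3K4me1 island. Median background in the H3K122ac islands of HOXC was 34.2 reads per kb, against 47.3 in HOXB and 52.5 in the whole list, and its part in these folds was not tested. At the HOXC13 side a single island with all 3 marks, chr12:54342401-54344200, had a fold of 13.

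HOXA and HOXD carried H3K122ac with H3K4me1 and hardly any H3K27ac. In HOXA, 7 of 8 H3K122ac islands met H3K4me1 and 1 met H3K27ac, and in HOXD 8 of 10 and 1. Of the whole H3K122ac list, 85.8% met H3K4me1 and 78.1% met H3K27ac, so the H3K4me1 shares were near that of the whole list. The strongest HOXA island, chr7:27200001-27201800, had 152 reads over 78 and a fold of 7.54, and it contained the only H3K27ac island of the cluster, of 400 bp with a fold of 1.53 and a q-value of 0.00445. That H3K27ac island was lost at a q-value of at most 1e-10, which kept 6 of the 8 H3K122ac islands, and the whole-list shares kept were not taken. In HOXD, H3K122ac was highest at the HOXD13 end, where the last segment was covered to 48.3% and the others to 1.67% to 10%. The longest HOXD island, chr2:176957801-176963600, had 893 reads over 358 and a fold of 9.66, and held the only H3K27ac island of HOXD, with a fold of 4.42. The strongest, chr2:176943601-176946000, had a fold of 10.4 from 261 reads over 97, with H3K4me1 at 3.01 and no H3K27ac island.

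The longest H3K4me1 island of the K562 windows, chr17:46656201-46669200 in HOXB, spanned 13000 bp with a fold of 3.82, and 12200 bp of it lay under an H3K122ac island with a fold of 10.1. In HOXC the longest, chr12:54380801-54389000, had a fold of 4.46 and the strongest, chr12:54390001-54392800, 5.87, and both met H3K122ac and H3K27ac. In HOXA the strongest and longest was chr7:27175001-27177800, with a fold of 3.28, which met an H3K122ac island with a fold of 2.95 and no H3K27ac. In HOXD the strongest, chr2:176952801-176953600, had a fold of 3.40 and also met H3K122ac without H3K27ac. The longest HOXD island, chr2:176935801-176942000, crossed the edge of the window and had a fold of 1.66.

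Over the 4 K562 windows, 25 of 48 H3K122ac islands met H3K27ac, 52.1% (38.3 to 65.5%), beside 78.1% of the whole list. That share was made of 15 of 17 in HOXB, 8 of 13 in HOXC, 1 of 8 in HOXA and 1 of 10 in HOXD. H3K4me1 was met by 42 of 48 (87.5%; 75.3 to 94.1%), near the 85.8% of the whole list, with 7 of 8, 16 of 17, 11 of 13 and 8 of 10 in HOXA to HOXD. The clusters thus differed in H3K27ac far more than in H3K4me1. H3K122ac islands with H3K4me1 and without H3K27ac numbered 17, or 35.4% of the islands in the windows against 11.9% of the whole list. They were 6 in HOXA, 1 in HOXB, 3 in HOXC and 7 in HOXD, and their median fold was 4.51 at a median size of 1200 bp. Where H3K27ac and H3K4me1 were both met, in 25 islands, the median fold was 9.90 and the median size 3600 bp. The whole list had the same order, with a fold of 3.23 and 1200 bp without H3K27ac and 6.0 and 2400 bp with both. All 10 islands over 4000 bp met H3K27ac, as did 98.2% of such islands in the whole list. Among islands up to 2000 bp it was 7 of 25, against 66.3%.

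From the side of the other marks, 33 of 40 H3K27ac islands in the K562 windows met H3K122ac (82.5%; 68.0 to 91.3%), beside 41.9% of the whole H3K27ac list. H3K4me1 islands met H3K122ac in 43 of 68 cases (63.2%; 51.4 to 73.7%), beside 54.2%. H3K122ac covered 25.7% of these windows and 6.25% of the chromosomes, and the part of this in the shares was not tested. The 23 H3K4me1 islands with neither acetylation had a median fold of 1.78, against 3.96 for the 26 with both. The whole list had the same order, with 2.12 and 3.44, and the classes made up 22.2% and 46.5% of it, against 33.8% and 38.2% in the windows.

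K562 folds were high in HOXB and HOXC and lower in HOXA. A fold of 3 or more was reached by 43 of 48 H3K122ac islands, 89.6%, beside 77.6% of the whole list. This was 17 of 17 in HOXB, 12 of 13 in HOXC, 9 of 10 in HOXD and 5 of 8 in HOXA. Summed over the islands of a cluster, H3K122ac reads stood 9.70 times over background in HOXB (exact 95% interval 9.37 to 10.0, counting error only), 10.3 times in HOXC (9.63 to 11), 7.08 times in HOXD (6.54 to 7.67) and 3.77 times in HOXA (3.36 to 4.23). For H3K27ac, 13 of 24 islands in HOXB, 7 of 14 in HOXC, 1 of 1 in HOXD and 0 of 1 in HOXA reached a fold of 3, 21 of 40 in all or 52.5%, beside 27.9% of the whole list. H3K4me1 stood at 4.10 times background in HOXB, 3.61 in HOXC, 2.53 in HOXA and 2.00 in HOXD. Islands are called for being over background, so these values describe called regions and not whole clusters.

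**Figure D4:**
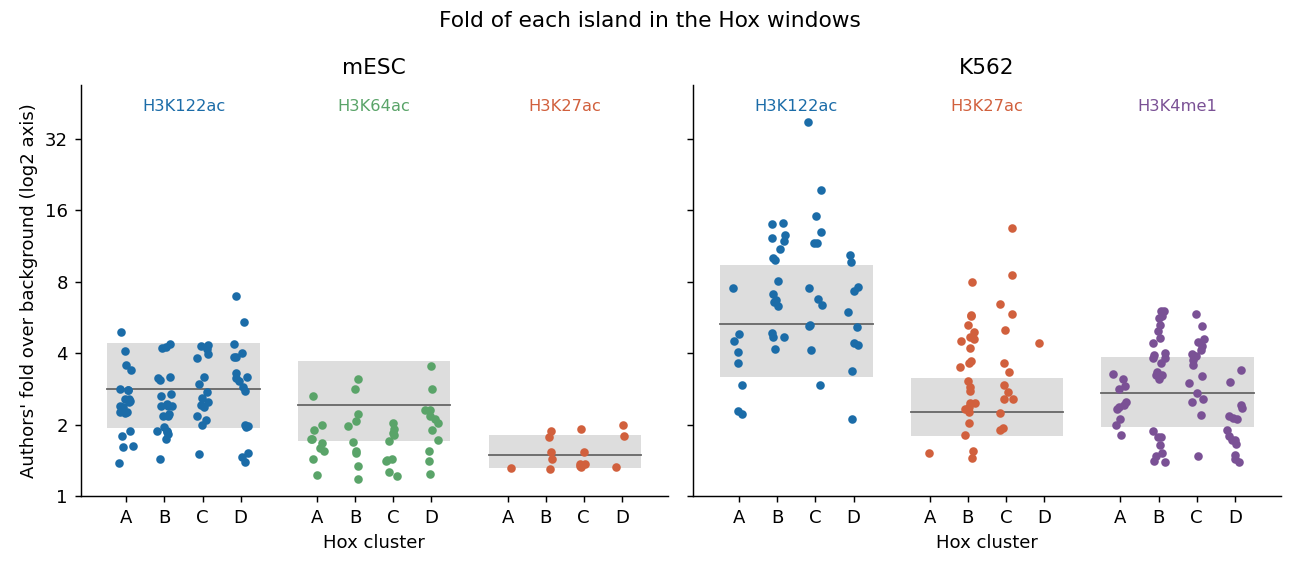
Each point is the authors' fold over background of 1 island in a Hox window (log2 axis), by mark and cluster; the grey band spans the middle 50% of the whole list and the line its median. Points of mESC H3K64ac lie mostly under the whole-list median of 2.42, and those of K562 H3K122ac in HOXB and HOXC mostly over 5.34.

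Set side by side, the mouse and human clusters had unlike patterns. H3K122ac covered between 40.9% and 61% of each mouse cluster and between 10.3% and 40.7% of each human cluster. H3K27ac covered 1.17% to 4.64% in mESC and 0.308% to 47.3% in K562. For H3K122ac, Hoxa was the most covered cluster in mESC and HOXA the least in K562. Organism, cell type, depth, window length and the merging of replicates differ as well and cannot be told apart here.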

How the data were processed

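Libraries from micrococcal nuclease chromatin, 6 from mESC and 4 from K562, were grouped by the cell line and antibody in their titles. The submitters' processing notes name Bowtie 0.12.8, SICER 1.1, HOMER 4.3 and the builds mm9 and hg19, without their roles. Per the labels of the 6 deposited lists, islands were built from 200 bp windows at a false discovery rate of 0.01, bridging gaps of 200 bp (H3K27ac) or 600 bp (the other marks).

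Each deposited list gives whole-number counts of immunoprecipitated and background reads per island, without normalization. The authors' caller added a p-value and an adjusted q-value for each island, and the deposited fold is a ratio of the 2 counts divided by 1 library ratio per list. Folds are compared only within a list or beside its whole-list value. The sources used here do not name the background library.

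Coordinates are 1-based for islands. Overlap meant at least 1 bp. Coverage counted bases inside a window. Chromosome-wide coverage used each chromosome up to its last island. Shares have Wilson intervals and pooled folds exact binomial ones (95%, scipy 1.17.1), for counting error only. No significance test was run, as replicates were merged or single. Overlap code was tested on simulated islands. Regions named are the strongest island with at least 10 background reads and the longest island per cluster and list, and all islands of a list with 5 or fewer in a cluster. Some further islands (the next strongest of HOXC, a broad one near HOXB1 and the HOXC13-side one) were picked after their values were seen. Windows, lists and members were chosen with earlier results of these data known. Strata of length and fold, same-length windows, flanks and distances were chosen after seeing the data. Alternatives were a q-value of at most 1e-10, windows widened by 20000 bp, 50% of the island covered, and H3K27ac joined across 600 bp. CpG were counted with Python 3.11.15.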

Additional observations from a re-analysis of the deposited data

How the results depend on the processing

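The 21 counts and shares were recomputed under the alternatives, giving 60 values. Of these, 46 stayed within 1.5 times the count or inside the 95% interval of the share, and 14 moved. Coverage was counted in steps of 200 bp. Steps within an island are not independent, so the intervals for coverage are too narrow and small shifts counted as moved. Widening each window by 20000 bp lowered coverage to 40.5% for mESC H3K122ac and 19.1% for mESC H3K64ac, and in K562 to 23.4% (H3K122ac), 18.8% (H3K27ac) and 33.9% (H3K4me1). A q-value of at most 1e-10 left 6 mESC H3K27ac islands covering 1.70%, lowered coverage to 17.7% for mESC H3K64ac and 31.6% for K562 H3K4me1, and lowered the share of mESC H3K122ac islands with H3K27ac to 8.57%. With 50% of the island covered, that share was 1.3%, that of mESC H3K64ac with H3K27ac 9.52% and that of K562 H3K4me1 with H3K122ac 48.5%. Joining across 600 bp left 26 K562 H3K27ac islands. No paired analysis was possible because the mouse replicates were merged before islands were listed and K562 had 1 library per mark, so leaving out a replicate was not run either. K562 H3K122ac had the lowest library ratio, 0.258, and regions outside its islands were not called at this depth.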

Other observations

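The surroundings of the clusters were read in flanks as long as each window. Beyond the Hoxd1 and Hoxd13 ends in mESC, H3K122ac covered 7.2% and 7.68% of bases, against 45.9% inside, and H3K27ac 1.44% and 7.68%, against 3.2%. Beyond the Hoxc4 and Hoxc13 ends H3K122ac covered 17.6% and 8.48%, against 50.4% inside, and H3K27ac 0% and 4%, against 4.64%. Beyond the Hoxb13 end H3K122ac covered 44.1%, close to the 40.9% inside Hoxb, but H3K27ac covered 25.4% in 21 islands there and 2.56% inside. Beyond the Hoxb1 end both were lower than inside, with 9.74% for H3K122ac and 0.615% for H3K27ac. On the low-coordinate and high-coordinate sides of Hoxa, H3K122ac covered 25.8% and 17.2%, against 61% inside. H3K27ac covered 17.2% and 2.33% there, against 1.17% inside. H3K27ac was thus lower inside than in both flanks for Hoxa, but not for Hoxb, Hoxc or Hoxd.

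In K562 the HOXD flanks had more H3K27ac than the cluster, 14.5% and 17.8% beyond the HOXD1 and HOXD13 ends against 2% inside, and less H3K122ac, 2.17% and 11% against 15%. Beyond the HOXA13 end H3K122ac covered 2.62% and H3K27ac 0.615%. Beyond the HOXB1 end all 3 marks went on, with 37.3% for H3K122ac, 37.2% for H3K27ac and 49.1% for H3K4me1. Beyond the HOXB13 end they covered 6.19%, 21.3% and 30.5%, where the last segment inside had 8.10%, 0% and 17.1%. These are values of single lists and were not tested.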
